A study of Mus musculus with 7 samples.

Results

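PU.1 occupancy at 36 h and at 72 h of RANKL was compared in mouse cells on the way from myeloid precursors (MPs) to osteoclasts (OCs). All PU.1 peaks on chromosomes 1 to 19 and X were taken, 71879 from the 36 h list and 76993 from the 72 h list, which is 148872 of the 239001 peaks in the 7 lists of the series. Peaks of the 2 lists were paired when they overlapped by at least 1 bp, and peaks with no partner were described as late gains (72 h only) or late losses (36 h only). Bone marrow was flushed from mice of strain C57BLACK6 aged 4 to 6 weeks with no altered gene named in the labels, and the cells grew for 3 days in 50 ng per mL CSF1. The PU.1 36 h and PU.1 72 h cells then received CSF1 with 100 ng per mL RANKL for 36 h or 72 h, and the PU.1 MP cells received CSF1 only. MITF 36 h and MITF 72 h cells had the same treatments as the PU.1 cells of those times. IgG MP cells received CSF1 only. Chromatin was immunoprecipitated with 5 µg of PU.1 or MITF antibody, and no amount is given for IgG. Each condition is 1 library of a culture that can hold other cell types, and a change in the share of cells with an occupied site cannot be told apart from a change of occupancy per cell. There are no replicates, so nothing below has a replicate check, and tests on tags compare these libraries and not the conditions. Occupancy was measured and not RNA, so marker genes of OCs could not be used to check how far the cells had differentiated.

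PU.1 is an ETS-family transcription factor of the myeloid lineage that binds a purine-rich element with a GGAA core, often beside other factors on the same enhancer. RANKL, the cytokine that turns CSF1-dependent precursors into OCs, signals through NF-kB and MAP kinases and induces the AP-1 protein c-FOS and then NFATc1, the factor on which OC gene expression depends. AP-1 dimers of FOS and JUN proteins bind the element TGANTCA. MITF, which binds E-boxes, is a partner of PU.1 in OCs.

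A peak's score is its number of sequenced fragments (tags) scaled to a common library size. A tag is worth 1.4781 in the 36 h list, 1.4684 in the 72 h list and 1.7058 in the PU.1 MP list. Tags in MPs therefore stand for a higher score than the same number at 36 h or 72 h. Peaks hold 7 to 252 tags at 36 h and 7 to 243 at 72 h, with a median of 16 in both, and with the usual scale of the peak caller the libraries hold about 6770000 and 6810000 tags, of which 27.58% and 30.75% lie in peaks. The 36 h peaks are 190 bp wide and the 72 h peaks 150 bp. Peaks of the IgG library from MPs overlap 4 peaks of each list.

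The sequences that carry the main difference are shown first. Peaks that were lower or missing at 72 h held the AP-1 element more often than peaks that were higher at 72 h, while for the ETS core the interval of the difference included 0. In the sequences below, the plus strand of mm9 is given 5′ to 3′, and capitals mark the ETS core (GGAAGT on the plus strand or, when it lies on the minus strand, ACTTCC) and the AP-1 element (TGANTCA). Among peaks that fell, the Fosl2 peak lies at chr5:32379583-32379733 and the Spag9 peak at chr11:93849961-93850111, both taken from the 72 h list. The St6gal1 peak at chr16:23234742-23234932, the Aldoa peak at chr7:133945418-133945608 and the Myo1f peak at chr17:33700830-33701020 were found at 36 h only.
Fosl2: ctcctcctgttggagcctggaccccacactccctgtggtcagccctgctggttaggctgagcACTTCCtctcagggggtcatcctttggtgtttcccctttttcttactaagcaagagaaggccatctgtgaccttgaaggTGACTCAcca
Spag9: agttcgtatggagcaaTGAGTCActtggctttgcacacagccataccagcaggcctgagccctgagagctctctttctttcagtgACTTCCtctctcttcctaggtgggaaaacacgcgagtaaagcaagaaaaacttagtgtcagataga
St6gal1: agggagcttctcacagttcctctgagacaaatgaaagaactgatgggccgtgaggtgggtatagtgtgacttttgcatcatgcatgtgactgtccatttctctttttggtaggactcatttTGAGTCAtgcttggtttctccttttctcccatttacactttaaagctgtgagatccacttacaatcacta
Aldoa: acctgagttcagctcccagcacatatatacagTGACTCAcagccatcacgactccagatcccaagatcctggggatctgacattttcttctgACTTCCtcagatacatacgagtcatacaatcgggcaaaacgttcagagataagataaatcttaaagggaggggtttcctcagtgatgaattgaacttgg
Myo1f: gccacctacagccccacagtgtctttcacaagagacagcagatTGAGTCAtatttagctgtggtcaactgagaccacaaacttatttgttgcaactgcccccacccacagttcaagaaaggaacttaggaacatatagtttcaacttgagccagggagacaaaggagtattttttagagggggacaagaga

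Each of these 5 peaks has an AP-1 element, with an ETS core in the same peak at Fosl2, Spag9 and Aldoa. Among peaks that rose or were found at 72 h only, Scamp2 is at chr9:57406541-57406691, Gpm6b at chrX:162654870-162655020, Tbc1d4 at chr14:101993576-101993726 and Plcl1 at chr1:55958217-55958367.
Scamp2: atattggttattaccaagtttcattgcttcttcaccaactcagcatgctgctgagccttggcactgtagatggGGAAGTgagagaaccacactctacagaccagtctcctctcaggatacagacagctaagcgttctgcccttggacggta
Gpm6b: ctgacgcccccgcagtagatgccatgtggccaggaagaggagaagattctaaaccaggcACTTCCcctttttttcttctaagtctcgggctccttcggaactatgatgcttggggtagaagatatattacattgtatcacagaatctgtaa
Tbc1d4: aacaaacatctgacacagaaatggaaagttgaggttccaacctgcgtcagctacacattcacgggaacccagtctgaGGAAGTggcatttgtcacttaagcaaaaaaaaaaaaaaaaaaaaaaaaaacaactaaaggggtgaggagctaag
Plcl1: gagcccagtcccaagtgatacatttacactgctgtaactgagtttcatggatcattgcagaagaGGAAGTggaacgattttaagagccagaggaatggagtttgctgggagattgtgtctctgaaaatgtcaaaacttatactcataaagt

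Each of these 4 has an ETS core and no AP-1 element. The 9 were picked to show the difference and do not stand for all peaks. Of the peaks found at 36 h only with at least 13 tags (clear losses, described below) 31.49% had an AP-1 element, and of their 72 h counterparts 5.24%. The highest losses at Sla, Gtf3c5 and Slc2a1 and the falling pair near Pgf had none, and the rising pair in Trps1 had one.

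Most PU.1 peaks were present at both times. Of the 72 h peaks 75.27% (95% Wilson interval 74.96 to 75.57%, counting error only) overlapped a 36 h peak, and of the 36 h peaks 80.63% (80.34 to 80.91%) overlapped a 72 h peak, giving 57953 pairs. Peaks with few tags were the ones without a partner. At 7 to 8 tags 38.08% of 72 h peaks and 44.86% of 36 h peaks had one, against 99.70% of 72 h peaks and 99.95% of 36 h peaks with over 100 tags. In every class of tags the 72 h peaks were paired less often than the 36 h peaks. The 19040 unpaired 72 h peaks and 13926 unpaired 36 h peaks thus consist mainly of peaks near the lowest score that the lists can show.

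**Figure D1:**
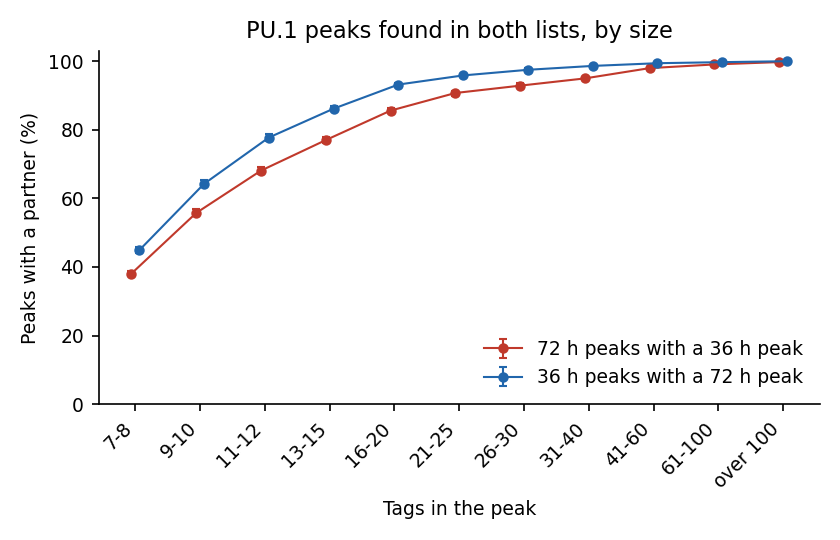
Share of PU.1 peaks (%) that overlap a peak of the other list, by the number of tags in the peak, for 72 h peaks (red) and 36 h peaks (blue). Points are shares, bars are 95% Wilson intervals, and the shares climb from 38.08% and 44.86% in the lowest class to 99.70% and 99.95% in the highest.

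Absence from a list is not the same as few tags. Of 6548 72 h peaks with 41 to 60 tags, 135 had no partner at 36 h, and 29 of these had no 36 h peak within 500 bp. Yet the 6413 peaks of that class that had a partner had a median of 42 tags in it, and the lowest had 11, above the lowest listed count of 7. From 36 h, 37 of 5843 peaks of the same class had no partner, and the lowest of the 5806 partners had 8 tags. A peak listed at 1 time only therefore has no measured value at the other time, and no fold is given for it.

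Within pairs the tags of the 2 libraries followed each other closely. The median ratio of tags at 72 h to 36 h was 1.084, Pearson's r of the log2 tags over the 57953 pairs was 0.908 (a description across peaks, which are not replicates), and 95.42% of pairs lay within 2-fold of the median ratio. Among the 11808 pairs with 61 to 120 tags the SD of the log2 ratio was 0.406, against 0.324 from counting alone. With the exact binomial test on the tags of each pair (Benjamini-Hochberg adjusted p under 0.05 over all pairs, and at least 2-fold), 13 pairs were called higher at 72 h (0.0224% of pairs) and 28 lower (0.0483%), or 41 in all (0.0707%), and 3728 pairs had an unadjusted p under 0.05. Counting error alone would put a share of up to 0.05 of the 57953 pairs under that unadjusted limit. The balance of rises and falls depends on the scaling. When tags were compared with the library-size ratio of 1.007, 27 were called higher and 13 lower. All 13 rising calls were kept, and 15 of the 28 falling calls, those near Fosl2 and Tlr5 among them, were not. The median log2 ratio also moved with GC content, from 0.12 in the sixth of pairs with the lowest GC to -0.12 in that with the highest. Whether GC-dependent recovery of fragments contributes to single calls was not tested, and medians taken within the GC classes left 9 pairs higher and 23 lower, with the calls near Mir1907, Atp6ap1l, Map3k7 and Brip1 lost among the rising ones.

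**Figure D2:**
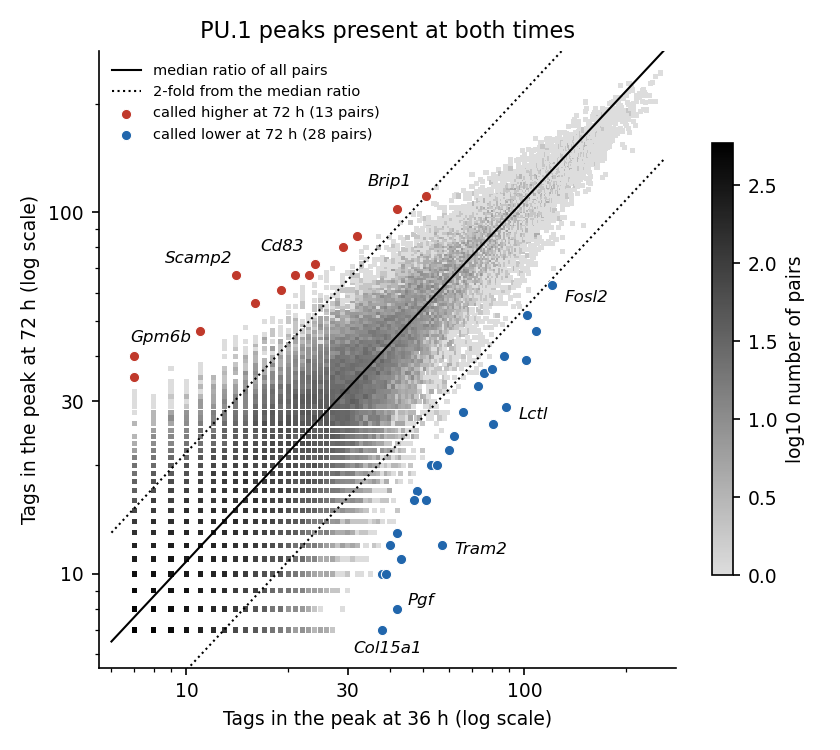
Tags at 36 h (x) and at 72 h (y), both on log scales, for the 57953 paired PU.1 peaks. Grey squares show the number of pairs at each combination, the solid line is the median ratio of 1.084, dotted lines lie 2-fold from it, and the 13 pairs called higher (red) and 28 called lower (blue) at 72 h sit outside them.

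Of the 13 pairs that rose from 36 h to 72 h 5 lay in introns and 8 between genes. Within 1 kb of a transcription start site (TSS) lay 0 of them and 4 of the 28 falling pairs. Of all paired 72 h peaks 15.56% lay there. A count of 0 allows up to 3 of the 13, so neither count sets its group apart from that share. Each adjusted p given for a pair is from the exact binomial test on its tags. The largest rise was 21.9 kb upstream of Gpm6b, which encodes a membrane proteolipid, with 22 tags in MPs, 7 at 36 h and 40 at 72 h (log2 ratio 2.40 ± 0.59, SE from counting, exact adjusted p = 0.0159). Near Scamp2, which encodes a protein of secretory vesicles, a peak 2.13 kb upstream of the TSS had 50 tags in MPs, 14 at 36 h and 67 at 72 h (2.14 ± 0.42, exact adjusted p = 0.000116). In an intron of Tbc1d4, a Rab GTPase-activating protein of vesicle traffic, tags were 24, 11 and 47 in the same order (1.98 ± 0.48, exact adjusted p = 0.0213). At these sites the 36 h library was the low one, and MPs and 72 h cells were the higher ones.

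Other rising pairs lay nearest to Cd83, Map3k7, Creb1 and Kctd12, among others. The peak 16.9 kb upstream of Cd83, a surface protein of activated antigen-presenting cells, had 44 tags in MPs, 24 at 36 h and 72 at 72 h (log2 ratio 1.47 ± 0.34, exact adjusted p = 0.017). In an intron of Map3k7, which encodes the kinase TAK1 downstream of RANK and toll-like receptors, tags went from 68 in MPs to 23 at 36 h and 67 at 72 h, with scores of 116.0 in MPs and 98.4 at 72 h. A peak 166 kb from Creb1, which encodes a cAMP-responsive factor, had 74, 32 and 86 tags, and one 52.8 kb from Kctd12 had 24, 16 and 56. An intronic peak of Trps1, named for Mir1907 in the list, rose from 7 to 35 tags (exact adjusted p = 0.0453) and was the only rising pair with an AP-1 element. With medians by GC class its exact adjusted p was 0.13, that of the pair nearest to Atp6ap1l (19 to 61 tags) 0.0834, that of the Map3k7 pair 0.0696 and that of the Brip1 pair 0.146, so none of these 4 was then called. Gramd3 (21 to 67 tags), Glul, the glutamine synthetase gene (29 to 80), C1qtnf3 (42 to 102) and Brip1, a DNA repair helicase gene (51 to 111), complete the 13, with log2 ratios from 1.01 to 1.56.

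The 28 pairs that fell were led by a peak in an intron of Col15a1, a collagen gene, with no MP peak, 38 tags at 36 h and 7 at 72 h (log2 ratio -2.56 ± 0.59, exact adjusted p = 0.00421). A peak 9.23 kb upstream of Pgf, which encodes a growth factor of the VEGF family, had 6 tags in MPs, 42 at 36 h and 8 at 72 h (-2.51 ± 0.56, exact adjusted p = 0.00176). A peak 7.28 kb upstream of Tram2, a gene of protein translocation into the endoplasmic reticulum, had 13, 57 and 12 tags (-2.36 ± 0.46, exact adjusted p = 0.000106). These sites were high at 36 h and had 13 tags or fewer, or no peak, in the other libraries.

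Falling pairs with more tags at 72 h lay nearest to Spag9, Nckap1l, Tlr5 and Fosl2, among others. The peak upstream of Spag9, a scaffold of JNK and p38 kinases, had 54 tags in MPs, 81 at 36 h and 26 at 72 h (log2 ratio -1.76 ± 0.33, exact adjusted p = 0.000116). In an upstream intron of Nckap1l, which encodes the hematopoietic subunit of the actin-regulating WAVE complex, tags were 38, 60 and 22. The peak 9.95 kb upstream of Tlr5, the flagellin receptor gene, had 73, 102 and 52 tags. The strongest peak of the group at 36 h was in an intron of Bre, 59.2 kb upstream of Fosl2, which itself encodes the AP-1 subunit FRA-2. It held 73 tags in MPs, 121 at 36 h and 63 at 72 h (-1.06 ± 0.22, exact adjusted p = 0.00853), and it had a MITF peak at both times. With the library-size ratio its log2 ratio was -0.951 (exact adjusted p = 0.034) and that of the Tlr5 pair -0.981 (exact adjusted p = 0.058), so neither was called. The next largest falls were at Synpo, an actin-associated protein gene (43 to 11 tags), Chrdl2, which encodes a chordin-like secreted protein (39 to 10), Galr1, a galanin receptor gene (38 to 10), St3gal5, the GM3 ganglioside synthase gene (40 to 12), and Gm10291 (42 to 13). With the library-size ratio the Galr1, St3gal5 and Gm10291 pairs were no longer called either.

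The MP library was not used to choose the pairs, and it gives another value for most of them. All 13 rising pairs had an MP peak, and the 36 h score was the lowest of the 3 libraries in 13 of 13. In 11 of them the MP score was nearer to the 72 h than to the 36 h score. Of the 28 falling pairs 27 had an MP peak, and the 36 h score was the highest in 27 of 27. The 72 h score was the lowest in 26 of these 27, and the MP score was nearer to 36 h in 17 and nearer to 72 h in 10. As a background, among all 29145 pairs with at least 40 tags and an MP peak the 36 h score was the lowest of the 3 in 48.5% and the highest in 21.2%. Pairs picked for a large difference between 36 h and 72 h are the nearer background. Of the 416 that were at least 2-fold higher at 72 h the 36 h score was the lowest in 95.4%, and of the 379 at least 2-fold lower it was the highest in 89.7% and the 72 h score the lowest in 83.4%, so the order in the called pairs is a description beside these shares.

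**Figure D3:**
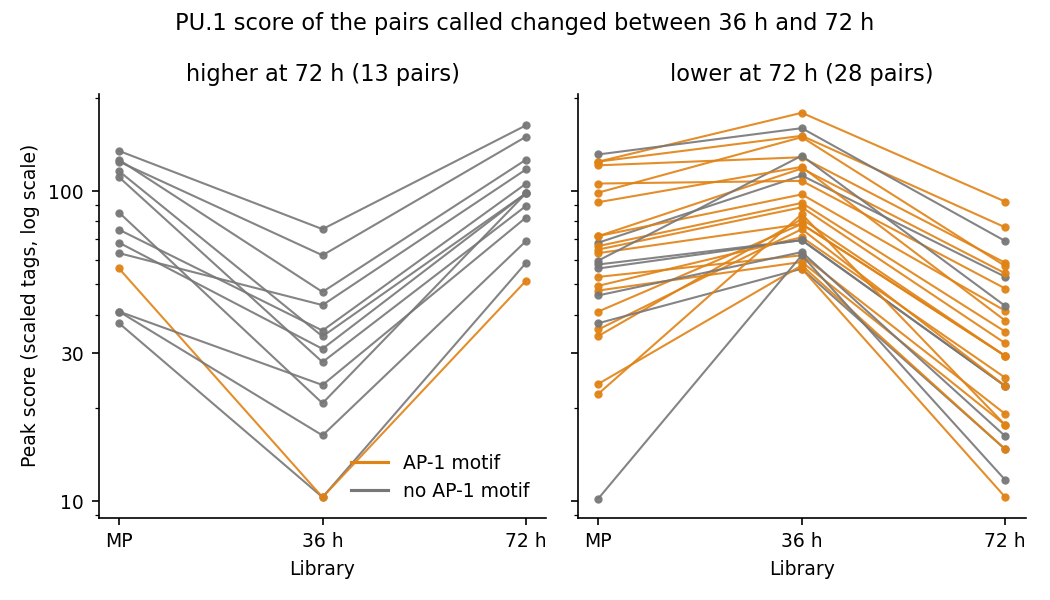
PU.1 score (scaled tags, log scale) in the MP, 36 h and 72 h libraries for the 13 pairs called higher (left) and the 28 called lower (right) at 72 h, 1 line per pair, orange where an AP-1 motif lies within 100 bp of the center. The 36 h point is the lowest of each rising line and the highest of each falling line, and orange marks 1 rising and 20 falling lines (the Col15a1 line has no MP point).

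Peaks present at 1 time only were described further from a set number of tags upward, and the word clear means no more than that. A clear late gain was a 72 h peak with no 36 h peak within 500 bp and at least 16 tags, 2 times the lowest 36 h count after scaling, and a clear late loss was a 36 h peak with no 72 h peak within 500 bp and at least 13 tags. There were 1584 clear late gains (2.06% of 72 h peaks), with a median of 20 tags, and 1464 clear late losses (2.04% of 36 h peaks), with a median of 15. With the library-size ratio there were 1942 and 1101, so their near balance also rests on the scaling. Only 32 gains and 5 losses had 41 tags or more, and 829 of the losses had 13 to 15. No clear gain or loss overlapped an IgG peak. The IgG list has only 268 peaks on these chromosomes and overlaps 4 peaks of each whole list. An overlap was therefore unlikely for any group of this size. Just inside the limit are gains of 16 tags and losses of 13, and just outside are those of 15 and 12.

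Most clear gains were sites that MPs also had. An MP peak was present at 67.61% of them (65.27 to 69.87%) and at 52.73% of clear losses (50.17 to 55.28%), a difference of -14.9 percentage points (95% Newcombe interval -18.3 to -11.4). Paired peaks weighted to the same tags had an MP peak in 94.72% and 90.12%. The 72 h and MP lists have the same peak width of 150 bp and the 36 h list another, and the part of this in the shares was not tested. Where a gain had an MP peak the median scores were alike, 27.3 in MPs and 29.4 at 72 h. Within 1 kb of a TSS lay 12.37% of gains and 12.84% of losses (difference 0.468 points, -1.89 to 2.84), below the 16.32% and 16.95% of paired peaks with the same tags, and 52.08% and 54.78% lay in introns. MITF peaks were few here and among paired peaks with the same tags. At 72 h 3 gains held one (0.1894%, against 0.7992% of paired peaks), and at 36 h 2 losses did (0.1366%, against 0.2511%). The MITF peaks were 150 to 1387 bp wide at 36 h and 150 bp at 72 h, and the part of this in the shares was not tested.

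The gain with the most tags was in an intron of Sfi1, a centrosome gene, with 163 tags at 72 h, 129 in MPs, no 36 h peak within 14648 bp and none of the motifs searched. No list of regions with anomalous signal was used here, and whether the tags at this site reflect PU.1 was not tested. The next gains had 65 tags near Gm826 (55 in MPs), 63 in an intron of Fgd4, a guanine exchange factor for CDC42 (54 in MPs), and 60 upstream of Tmem170b (57 in MPs). Lpar1, a lysophosphatidic acid receptor gene, had 56 tags in an intron (62 in MPs), and Wdfy2 had 55 (51 in MPs). By score these sites were about as high in MPs as at 72 h, with Lpar1 higher in MPs (105.8 against 82.2). All were missing from the 36 h list.

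Clear late gains without an MP peak numbered 513, out of 10557 unpaired 72 h peaks without one. The highest were 206 kb from Plcl1, a phospholipase C-like gene, with 55 tags, and in the Nfatc1 gene, which encodes the transcription factor on which OC formation depends. The Nfatc1 site (chr18:80886626-80886776, mm9) is intronic, 18.2 kb from the TSS, held 53 tags, and had no 36 h peak within 1837 bp and none of the 9 motifs. It is followed by Tbc1d9 (49 tags), an intron of Itgb5 that the list assigns to Umps (43), Ifngr2, a subunit gene of the interferon gamma receptor (41), an intron of Ap1b1 (40), Slc9a9 (39) and Nrp2, a semaphorin and VEGF co-receptor gene (38).

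Among the losses, Sla, which encodes a Src-like adaptor of lymphoid and myeloid cells, had 55 tags at 36 h in an intron and 47 in MPs (scores 81.3 and 80.2). St6gal1, a sialyltransferase gene, had 47 (22 in MPs), and Fam71f1 had 39 (41 in MPs). The other highest losses had fewer or no tags in MPs. A peak upstream of Gtf3c5, an RNA polymerase III factor gene, had 45 tags and the only MITF peak among them. The next had 44 tags in an intron of Slc2a1, the glucose transporter GLUT1, and 41 near Aldoa, an aldolase gene (20 in MPs). Myo1f, a myosin gene, and Zfp276 had 40 each, and neither had an MP peak. Further losses without an MP peak were 4.22 kb upstream of Arg1, the arginase gene of alternatively activated macrophages (37 tags), in Cyth1 (34), in Tbc1d22a (34) and 11 bp from the TSS of Ocstamp, which encodes a membrane protein needed for the fusion of OC precursors (34 tags).

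Sequence was not used to choose any peak, and it separated losses from gains. The AP-1 element lay within 100 bp of the center in 31.49% of clear losses (29.16 to 33.91%) and in 5.24% of clear gains (4.247 to 6.45%), a difference of 26.2 points (23.6 to 28.9). Paired peaks with the same tags held it in 11.96% and 11.45%, and all 36 h and 72 h peaks in 13.09% and 10.53%, so losses were above and gains below the remaining peaks. The share of losses was as high without an MP peak (31.65%) as with one (31.35%), with a difference of 0.3 points (-4.45 to 5.07). It rose with size, from 28.35% of losses with 13 to 15 tags to 40.59% of those with 21 to 30. Within 1 kb of a TSS it was 18.62% of losses against 4.082% of gains, and beyond 10 kb 33.73% against 5.125%. In the 3 classes of GC content losses held it in 26.96 to 35.08% and gains in 4.357 to 6.399%.

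**Figure D4:**
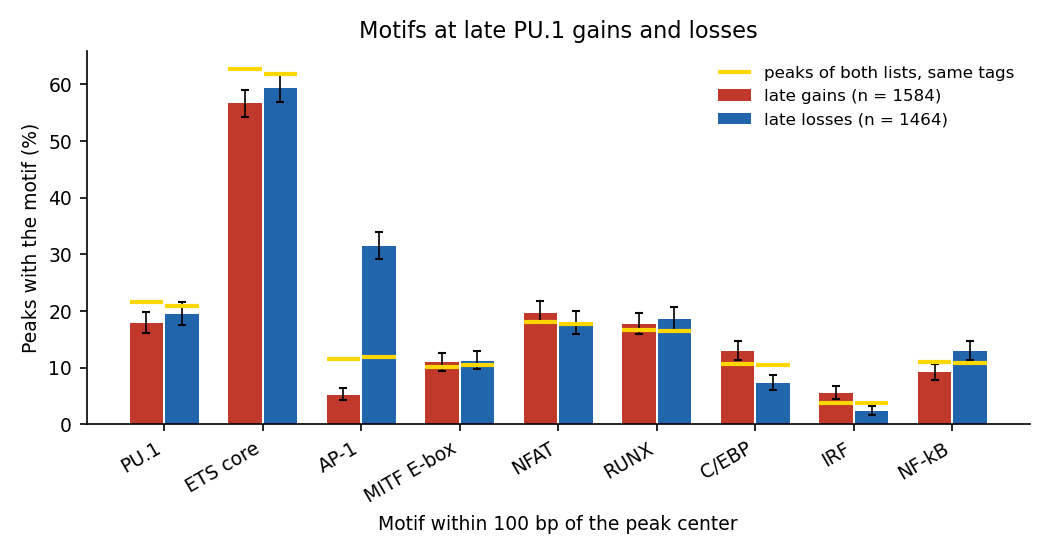
Share of clear late gains (red, n = 1584) and clear late losses (blue, n = 1464) with each of 9 motifs within 100 bp of the peak center (%). Error bars are 95% Wilson intervals and yellow lines give paired peaks weighted to the same tags; for AP-1 the bars are 5.24% and 31.49% around lines at 11.45% and 11.96%.

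The 9 motifs were searched on both strands in windows of 201 bp. The PU.1 letters GAGGAAGT include the ETS core GGAAGT, so each PU.1 match is also an ETS match. The ETS core was in 56.69% of gains and 59.43% of losses (difference 2.73 points, -0.772 to 6.23) and in 62.92% of all 72 h peaks, and PU.1 in 17.93% and 19.47% (all 72 h peaks 22.79%). Intervals of the difference also included 0 for the MITF E-box TCANGTG (10.92% and 11.27%), NFAT TGGAAA (19.7% and 17.9%) and RUNX TGTGGT (17.68% and 18.58%), which lie in 10.15%, 18.14% and 16.77% of all 72 h peaks. C/EBP TTGCNNAA was more frequent in gains, at 12.94% against 7.24% of losses (-5.7 points, -7.83 to -3.57) and 10.77% of all 72 h peaks. The IRF repeat was too, at 5.556% against 2.322% (-3.23 points, -4.64 to -1.87) and 3.782%. The NF-kB site was more frequent in losses, at 12.98% against 9.217% of gains (3.76 points, 1.53 to 6.01). It lay in 11.19% of all 36 h peaks and 10.67% of all 72 h peaks. Median GC content was 48.3% in losses and 46.3% in gains, and its part in the NF-kB difference was not tested. The NF-kB share was 16.18% (13.63 to 19.11%) in losses without an MP peak and 10.1% (8.171 to 12.43%) in those with one. Paired peaks with the same tags held it in 10.73% and 10.82%. Intervals here count peaks of 1 library per time and do not cover the spread between cultures.

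Forms of the AP-1 element were then told apart, a choice made after these shares had been seen. The form TGACTCA, which read on the opposite strand is TGAGTCA and is the site bound best by FOS and JUN dimers, lay in 26.02% of losses, 3.662% of gains, 9.904% of all 36 h peaks and 7.733% of all 72 h peaks. The form with A or T in the middle, TGAATCA, lay in 6.831%, 1.705%, 3.581% and 3.086%. The related cAMP response element bound by CREB and ATF proteins was rare, with 11 losses (0.7514%) and 3 gains (0.1894%) holding it, against 0.4202% of all 36 h and 0.3883% of all 72 h peaks. The AP-1 matches of losses lay farther from the center than the ETS matches, at a median of 37 bp against 14 bp, and 35.57% and 71.15% were within 25 bp. Paired 72 h peaks were alike, with medians of 40 and 12 bp and 32.66% and 76.55% within 25 bp. In the 83 gains with AP-1 the median was 52 bp, with 18.07% within 25 bp. An ETS core was in 49.24% of losses with AP-1 (44.7 to 53.79%) and in 64.11% of those without (61.09 to 67.02%).

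Pairs present at both times showed the same difference by degree. Among pairs with at least 40 tags in all, which share no peak with the gains and losses, the share with AP-1 fell class by class from 51.86% (46.99 to 56.70%) of the 403 pairs with a log2 ratio below -1 to 14.14% of those between -0.25 and 0 and 3.114% of those between 0.75 and 1. It was 4.286% (2.728 to 6.672%) of the 420 above 1. The 3873 pairs with AP-1 had a median log2 ratio of -0.19, with quartiles of -0.47 and 0.053, and the 25698 without had 0.055 (-0.18 and 0.31). Ratios were below 0 in 70.0% and 43.5%. In each of 6 classes of GC content the median was lower with AP-1, by -0.28 to -0.21. It was also lower at each distance from the TSS, at -0.19 against -0.031 within 1 kb and -0.20 against 0.078 between 10 and 100 kb. Pairs with AP-1 had a median of -0.18 where they also had an ETS core and -0.19 where they did not. For C/EBP the median was 0.058 higher with the motif than without (0.012 to 0.062 within the classes of GC content). For NF-kB the difference was -0.067, but within these classes it ran from -0.055 to 0.0057.

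**Figure D5:**
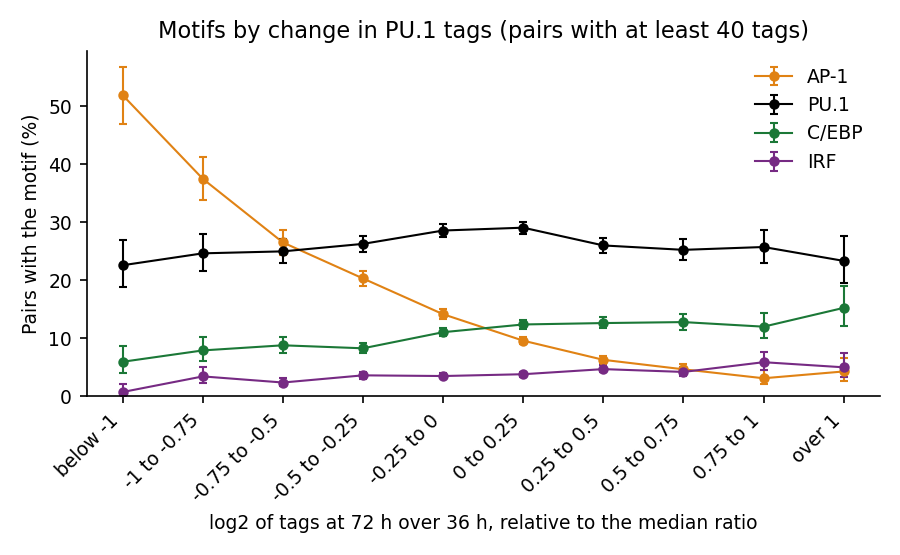
Share of paired PU.1 peaks (at least 40 tags in all) with an AP-1, PU.1, C/EBP or IRF motif (%) by log2 ratio of tags at 72 h over 36 h, relative to the median ratio. Bars are 95% Wilson intervals; the AP-1 share goes from 51.86% below -1 to 4.286% above 1, and the PU.1 share stays between 22.58% and 29.05%.

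The called pairs, which are among those counted above, had AP-1 in 20 of 28 that fell and 1 of 13 that rose. With the library-size ratio these counts were 9 of 13 and 1 of 27, and with medians by GC class 17 of 23 and 0 of 9. Against MPs the pairs with AP-1 went up at 36 h relative to the rest and down at 72 h. At 36 h their median log2 ratio to the MP score was -0.064, against -0.17 for pairs without AP-1, and at 72 h it was -0.17 against -0.0098. Scores of the 3 lists are scaled separately, so only the difference between the 2 kinds of pair is meant. Medians differed little by MITF occupancy. The MITF lists of 36 h and 72 h differ in peak width, and the part of this in the split by time was not tested. Pairs with a MITF peak at both times (2317, with a median of 216 tags) had a median log2 ratio of -0.042, those with one at 36 h only -0.035 and those with one at 72 h only 0.056.

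Gene names are those of the nearest transcript in the lists. Clear gains were spread over 1326 genes and clear losses over 1334, and 176 genes had both. Gains carry the names of the 72 h list and losses those of the 36 h list, and the lists do not always name the same gene (1700029N11Rik names 29 peaks at 36 h and 0 at 72 h, Akirin2 3 and 17), so these counts depend on the naming. Tbl1xr1, a subunit gene of the NCoR corepressor complex, had the most gains, 6 of 19 to 34 tags over 458 kb, and no loss. Rasgef1b had 5, B3gnt2 had 4 within 33.3 kb, and Nrp2 had 4, each without an MP peak, beside 3 losses. A further 26 genes had 3 gains, among them Fos, Cd47 and Btg1. Dnajb12, a chaperone gene, Smox, the spermine oxidase gene, and Tbc1d22a had 4 losses each and no gain, and 8 genes had 3 losses, among them Cd44 and Rasa3.

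Summed over the pairs of each gene (11568 genes with at least 50 tags), the median log2 ratio was 0.0044, and 282 genes (2.44%) were at least 1.5-fold higher at 72 h and 328 (2.84%) at least 1.5-fold lower. With the library-size ratio these became 551 and 184, so the balance again rests on the scaling. There is 1 library per time and no test here.

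OC genes were mostly within 1.5-fold, as were most of the 11568 genes, of which 2.44% passed it upward and 2.84% downward. The gene lists here and below are small, so their counts past the limit are descriptions beside these shares. Of 12 measured genes of resorption and acid secretion 0 passed the limit in either direction, with a median log2 ratio of -0.08. Acp5, the gene of tartrate-resistant acid phosphatase, had 66 tags at 36 h and 63 at 72 h (log2 ratio -0.184), Ctsk, the cathepsin K gene, 218 and 223 (-0.0839), and Atp6v0d2, a proton pump subunit gene, 348 and 467 (0.308). Their peaks included 5 clear gains (4.13% of 121 72 h peaks, against 2.06% of all) and 1 loss. Mmp9, the gelatinase gene, gained a peak 91 bp from its TSS with 19 tags and no MP peak. Snx10, a gene of OC vesicle traffic, gained 3 peaks of 16 to 24 tags (12 to 29 in MPs) and lost 1. Of 15 measured genes of fusion and adhesion 2 were lower at 72 h, Adam8 (65 tags at 36 h and 42 at 72 h in 2 pairs, log2 ratio -0.747) and Scin, an actin-severing protein gene (143 and 95 tags in 3 pairs, -0.707). This list had 7 losses (4.27% of 164 36 h peaks, against 2.04% of all) and 5 gains. Besides Ocstamp they were at Cd44, the hyaluronan receptor gene, with 3 upstream losses of 14 to 24 tags, Cd47 (15 tags), Pxn (17) and Vcl (20).

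Of 16 measured genes of receptors and signaling Oscar, an immunoglobulin-like co-stimulatory receptor of OCs, was higher at 72 h, with 21 and 37 tags in 2 pairs (log2 ratio 0.70). Syk, the kinase downstream of such receptors, gained 3 peaks of 18, 25 and 36 tags, with no peak, 13 and 26 tags in MPs. Csf1r gained 1 of 30 tags (25 in MPs), 2.08 kb upstream of the TSS. The list had 6 gains (3.80% of its 158 72 h peaks, against 2.06% of all) and 1 loss (0.917% of 109 36 h peaks, against 2.04%), at Plcg2.

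None of the 20 measured genes of factors that promote OC formation passed 1.5-fold (median -0.035), with 8 gains (2.68%) and 6 losses (2.16%). Fos gained peaks of 27, 29 and 16 tags at 45.9 kb and 4.4 kb upstream and 45047 bp downstream of its TSS. In MPs the sites of 27 and 29 tags had 14 and 16, and the site of 16 tags had no peak. Nfatc1 gained the peak of 53 tags described above and one of 25 tags 1.32 kb from the TSS (18 in MPs), and lost one of 18 tags, which had an AP-1 element, in the neighboring Atp9b. Mitf lost 2 intronic peaks of 15 and 18 tags. Of the 13 measured genes of factors that restrain OC formation 0 passed (median -0.00084), and 4 gains (1.52%) and 6 losses (2.70%) lay near them. Runx1 gained peaks of 22 and 24 tags (18 and 22 in MPs), Irf4 lost peaks of 24 and 13 tags and Bcl6 of 15 and 14. Both lists are near the shares of all peaks. The called pairs near Creb1 (higher) and Fosl2 (lower) belong to the first list, and the Fosl2 call was lost with the library-size ratio.

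Macrophage and monocyte genes had 8 clear gains (4.82% of 166 72 h peaks, against 2.06% of all). They had 0 losses among 146 36 h peaks, which allows a share of up to 2.05% of them (3 counts of the total). That does not set the list below the 2.04% of all 36 h peaks. The gains lay at Adgre1, the F4/80 gene (27 and 34 tags), the toll-like receptor genes Tlr4 (28) and Tlr2 (16), Ccr2, a chemokine receptor gene of monocytes (21), Ly6c2 (20), Marco, a scavenger receptor gene (18), and Mertk (17). The Adgre1 gain of 27 tags had 40 in MPs, and the gains at Ccr2, Ly6c2, Marco and Tlr2 had 34, 28, 10 and 6. The others had no MP peak. The median log2 ratio of 17 measured genes was 0.12, with 0 past 1.5-fold. Inflammatory and interferon genes had 5 gains (4.07%, against 2.06% of all) and 0 losses (up to 2.91% allowed). The gains were at Ccl4 (19 and 26 tags), Il10 (18), Ptgs2 (18) and Ifit3 (18, with an IRF motif). In MPs the Ccl4 site of 26 tags had 25, Ptgs2 19 and Ifit3 14, and the others had no peak. The median log2 ratio was -0.07 over 17 genes.

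Markers of other cells that a marrow culture can hold had peaks too. The neutrophil list had 36 peaks at 36 h and 33 at 72 h, and the B cell list 30 and 34. The mesenchymal and osteoblast list had 63 and 96, of which Runx2 had 25 and 41 (42 in MPs). The 2 lists do not always name the same gene, so these counts depend on the naming. Of the Runx2 peaks 5 at 36 h and 12 at 72 h had no partner. Pdgfra named 0 peaks at 36 h and 7 at 72 h, and 3 of the 7 had no partner. Of 8 measured neutrophil genes 1 passed, Mpo, with 70 tags at 36 h and 46 at 72 h in 3 pairs (log2 ratio -0.722), and the median was 0.13. Cebpe, a factor of granulocyte maturation, lost 2 peaks of 13 tags, the 2 losses of the list (5.56% of 36 peaks at 36 h, against 2.04% of all) beside 0 gains. The 5 measured B cell genes (median 0.058) and 6 mesenchymal and osteoblast genes (median 0.093) had 0 past 1.5-fold. The B cell list had 2 losses (6.67% of 30 peaks, against 2.04% of all) and 1 gain, and the mesenchymal list 1 loss and 2 gains. The loss shares of the neutrophil and B cell lists rest on 2 peaks each. Summed PU.1 tags beside a gene do not give the number of such cells.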

How the data were processed

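ChIP-Seq peak lists of 7 libraries, 1 per condition, were used as deposited. Per the paper's methods and the submitters' processing notes (CASAVA 1.8, Bowtie2, HOMER, mm9), the authors mapped reads to mm9 and called peaks. Versions of Bowtie2 and HOMER and the calling settings are not given in the sources used here. The deposited score is a signal, a peak's tags after HOMER's scaling of each library to one total (10000000 is assumed). Scores were whole multiples of 1 value per list to within 0.0499, and division by it gave tags. Implied depths were 6770000 and 6810000 tags for PU.1 at 36 h and 72 h, and 62 and 79 peaks on other chromosomes were left out. No reads were analysed, so nothing was called again.

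Overlapping peaks (at least 1 bp) were paired by largest overlap. For each pair the split of its tags between the libraries was compared with the median split of all pairs (exact two-sided binomial test, at fixed sum), with Benjamini-Hochberg adjustment over all 57953 pairs. On simulated tags 199 of 200 pairs with a 4-fold change and at least 30 tags on average were recovered, and 6 unchanged pairs were called. The simulated tags had counting error only, and smaller changes were not simulated. Real pairs spread more (SD of the log2 ratio 0.406 against 0.324 from counting, at 61 to 120 tags). The simulation therefore does not give the share of false or missed calls among them. Shares have Wilson and differences Newcombe intervals. Comparison with paired peaks used weights that give them the tag classes of the gains or losses. TSS distances, exons and introns came from GENCODE on mm9 at the peak center, and motifs from the same genome. Gene names come from the RefSeq transcripts of the lists, of which 96.67% (36 h) and 90.37% (72 h) have a symbol, and otherwise from the nearest GENCODE gene. Only 85.34% of pairs have the same name in both lists, so sums per gene use the 36 h name.

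Named genes are those of the 8 largest changes each way, the 8 clear gains and losses with most tags, the genes with most of them, and 10 gene lists. The remaining called pairs, and the gains and losses without an MP peak, were named after their values were seen. Members and lists were chosen with earlier results of these data known. Python 3.11.15, numpy 2.4.6, pandas 2.3.3, scipy 1.17.1 and matplotlib 3.10.9 were used. The alternatives were other scalings, limits, overlaps, windows and annotations.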

Additional observations from a re-analysis of the deposited data

How the results depend on the processing

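No paired analysis was possible because each condition has 1 library, and for the same reason no replicate could be left out. The lists hold no distance to the TSS, so the alternative that would replace it by the reference annotation was not run, and GENCODE distances were used throughout. No called pair changed direction under the alternatives that still paired it. Of the recomputed values of the 41 called pairs 211 stayed called and 24 did not. Of these, 15 fell below the call with the library-size ratio, at log2 ratios from -0.951 (Fosl2) to -1.94 (Galr1), and 9 by GC class, the rising Mir1907 (2.09), Atp6ap1l (1.45), Map3k7 (1.37) and Brip1 (0.889) and 5 falling pairs. After removal of peaks below 2 times the lowest score 3 rising and 8 falling pairs, Gpm6b, Tram2, Pgf and Col15a1 among them, had no value. The library-size ratio gave 27 changed pairs higher and 13 lower, 9 of the latter with AP-1, and 551 and 184 genes past 1.5-fold. Of rising pairs 0 had AP-1 by GC class and after removal of peaks below 2 times the lowest score. With genes of at least 100 tags 105 and 134 were past 1.5-fold, which follows from testing fewer genes.

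Paired shares of 72 h and 36 h peaks were 78.83% and 86.83% after removal of the same peaks, 78.14% and 78.14% with equal numbers of peaks in both lists, 74.73% and 80.05% for centers within 100 bp, and 73.92% and 79.17% with a reciprocal overlap of 50%. A 3-fold limit left 522 gains and 276 losses. Of these gains 72.22% had an MP peak, 0% and 0.5747% a MITF peak at 36 h and 72 h, and 62.45% an ETS core. Of these losses 58.33% had an MP peak, 0.7246% a MITF peak at 36 h, 39.86% AP-1, 13.41% an E-box, 20.29% NFAT, 22.10% RUNX and 11.23% NF-kB. Without the limit on distance there were 2636 gains, with 1.176% at a MITF 72 h peak, 15.86% within 1 kb of a TSS and 6.563% with AP-1, and losses had 15.86% near a TSS and 28.05% with AP-1. With protein-coding genes only, 10.8% of gains were near a TSS. A window of 75 bp each side holds fewer matches by construction. Gains then had AP-1 in 3.472%, the E-box in 7.955%, NFAT in 14.9%, RUNX in 14.02%, C/EBP in 9.659% and NF-kB in 7.134%. Losses had the ETS core in 56.76%, AP-1 in 26.71%, the E-box in 7.992%, NFAT in 14.21%, RUNX in 13.80%, C/EBP in 5.055% and NF-kB in 10.25%. The AP-1 share of losses stayed above that of gains in each alternative run. The GC classes, the protein-coding genes, the AP-1 counts of called pairs and the alternatives for called pairs beyond the 8 largest each way were added after the data had been seen. The lowest listed peak has 7 tags, so smaller signals cannot be seen, and a peak that was merged or placed apart by the caller counts as absent.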

Other observations

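Sums of tags over the pairs of a gene differed between the times at some genes with no called pair. Among genes with at least 5 pairs, named here after their values were seen, Dcstamp, which encodes a membrane protein needed for OC fusion, went from 202 tags at 36 h to 148 at 72 h over 6 pairs (log2 ratio -0.565), and Camk2g, a calcium and calmodulin-dependent kinase gene, from 211 to 150 over 7 (-0.609). In the other direction Bank1, a scaffold gene best known in B cells, went from 130 to 220 over 5 pairs (0.642), Abcd2, a peroxisomal fatty acid transporter gene, from 98 to 164 over 6 (0.626), and Ms4a4a from 125 to 204 over 5 (0.59). These sums use the gene name of the 36 h list. Dcstamp names 6 peaks at 36 h and 18 at 72 h, and 4 of the 18 lack a partner. Paired sites that only the 72 h list names Dcstamp are therefore not in its sum. The highest score of a Dcstamp peak is 104.9 at 36 h and 138.0 at 72 h. No test is possible with 1 library per time.

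The median log2 ratio of pairs also moved with distance from the TSS, from -0.117 within 100 bp to -0.0578 at 100 to 1000 bp and 0.0375 beyond 100 kb. GC content changes along the same axis, and the part of each was not separated.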
